A study of Mus musculus with 10 samples.

Results

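The interferon genes described here are 38 of the 55385 gene identifiers measured in the WT31 melanoma pair. They are a list of symbols of interferon receptors, components of their signaling, innate sensors and genes stimulated by interferon. The rule sets no threshold on a measured value, but the list was drawn up with earlier results of these data known. In order of their roles, the members are 4 receptor chains (Ifnar1, Ifnar2, Ifngr1, Ifngr2), 3 receptor kinases (Jak1, Jak2, Tyk2), 6 transcription factors (Stat2, Irf1, Irf2, Irf3, Irf7, Irf9), 5 sensors including their adaptor (Tlr3, Ddx58, Ifih1, Nod1, Mavs), 15 effectors (Isg15, Ifit1, Ifit2, Ifit3, Ifi35, Mx1, Mx2, Oas1a, Oas2, Bst2, Rsad2, Adar, Gbp2, Xaf1, Sp100) and 5 modifiers of proteins (Usp18, Trim25, Parp9, Parp14, Dtx3l). All 38 symbols were found in the tables. 24 of them passed the filter on low counts and were tested, and 14 did not.

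WT31 is a mouse melanoma line from animals that carry the transgene Tyr::NrasQ61K/°, which the tyrosinase promoter drives in melanocytes, and lack INK4a (INK4a-/-). WT31_P5IV is the subline that was obtained from WT31 after 5 passages through the liver, each started by intravenous injection. Both lines share this genotype, were grown in RPMI medium with fetal calf serum and penicillin/streptomycin, received no drug treatment according to the labels, and were harvested sub-confluent, and 5 libraries of each were sequenced. Each group is 1 cell line in culture, and the libraries do not come from metastases. The sample titles call the libraries biological replicates, but the labels do not say whether these were separate cultures, so the p-values measure the spread between these libraries, which may in part be technical. The comparison asks how the transcripts of the interferon system differ between the passaged and the parental cells.

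Interferons are cytokines that cells release on viral infection or that lymphocytes release on activation. Type I interferons bind the receptor chains IFNAR1 and IFNAR2, interferon gamma binds IFNGR1 and IFNGR2, and the kinases JAK1, JAK2 and TYK2 at these chains phosphorylate STAT proteins. STAT2 together with IRF9 belongs to the complex ISGF3, which binds the interferon-stimulated response element (ISRE), whereas STAT dimers induced by interferon gamma bind the gamma-activated site (GAS). In melanoma, interferon signaling is known for raising antigen presentation and slowing growth, and loss of its receptors or kinases is known from tumors that escape immune therapy.

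The ISRE was looked for in the RefSeq promoters of the members (GRCm38.p6, 250 bases before to 50 bases after the start), since the capitals then show which of the genes below carry the element that defines the pathway. 32 members had an entry. Mx1, Mx2, Oas2, Usp18, Parp9 and Parp14 were not matched. The ISRE core was searched on both strands as GAAA, any 2 bases and GAAA again, which reads TTTC, any 2 bases and TTTC on the other strand, and overlapping matches were counted. The stretches are shown 5′ to 3′ on the strand of the gene, with the core matches in capitals. Isg15 (minus strand, chr4:156200819-156200988), Bst2 (minus strand, chr8:71537473-71537642) and Rsad2 (minus strand, chr12:26456453-26456622) are given with the 170 bases before the RefSeq start, as is Ifit3 (plus strand, chr19:34583359-34583528). Ifit1 (plus strand, chr19:34640719-34640870) is given up to the start of its GENCODE gene and Gbp2 (plus strand, chr3:142620594-142620623) with 30 bases around its match, which lies inside the GENCODE gene.
Isg15: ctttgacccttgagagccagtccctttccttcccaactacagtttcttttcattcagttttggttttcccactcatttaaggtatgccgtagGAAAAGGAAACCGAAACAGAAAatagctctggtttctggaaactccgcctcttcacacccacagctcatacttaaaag
Ifit1: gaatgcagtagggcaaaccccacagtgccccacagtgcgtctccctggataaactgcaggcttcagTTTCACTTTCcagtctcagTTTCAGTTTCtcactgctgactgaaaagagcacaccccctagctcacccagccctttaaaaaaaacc
Ifit3: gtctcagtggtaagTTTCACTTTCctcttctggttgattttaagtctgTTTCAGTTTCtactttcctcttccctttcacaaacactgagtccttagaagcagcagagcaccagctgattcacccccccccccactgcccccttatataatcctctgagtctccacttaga
Gbp2: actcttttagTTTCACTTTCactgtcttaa
Bst2: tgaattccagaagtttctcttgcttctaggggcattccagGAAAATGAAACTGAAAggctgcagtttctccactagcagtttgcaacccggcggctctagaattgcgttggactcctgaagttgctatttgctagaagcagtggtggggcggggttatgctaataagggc
Rsad2: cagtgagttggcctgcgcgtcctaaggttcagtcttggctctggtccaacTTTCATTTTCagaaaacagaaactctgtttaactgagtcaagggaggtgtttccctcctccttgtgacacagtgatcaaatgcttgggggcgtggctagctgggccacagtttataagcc

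The core was present in at least 1 promoter of 11 of the 32 members, as compared to 3.99% of the 27025 genes in the same RefSeq table. The 11 genes were Isg15, Ifit1, Ifit3, Ifih1, Oas1a, Gbp2, Bst2, Rsad2, Stat2, Irf2 and Ddx58. Isg15 held 3 overlapping matches that begin 78, 72 and 66 bases before the start, Bst2 held 2 overlapping matches at 130 and 124 bases, and Ifit1 and Ifit3 held 2 separate matches each. Of the members with a promoter entry, 5 of the 23 tested genes and 6 of the 9 genes too low to be tested carried the core. The GAS was searched as TTCNNNGAA, which reads the same on the other strand, and was found for 10 of the 32 members against 9.55% of the 27025 genes. The 10 genes were Ifnar1, Ifnar2, Irf1, Irf2, Nod1, Adar, Bst2, Ifi35, Ifit2 and Oas1a. In a window restricted to the 250 bases before the start, 9 members held the ISRE core against 3.46% of genes, and 7 held the GAS against 8.13%. A match describes letters in this window and says nothing of binding.

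The library totals ranged from 24255389 to 25750639 estimated counts, so that a count of 3 corresponded to 0.114 to 0.129 CPM (counts per 1000000 counts of a library, on library sizes scaled by TMM). The 7 melanocyte markers (Mlana, Pmel, Tyr, Tyrp1, Dct, Mitf, Sox10) summed to 17046 to 18443 CPM in WT31 and to 22228 to 25729 CPM in WT31_P5IV, which is the labelled cell type. Pmel, Dct and Tyr were called higher and Tyrp1 and Sox10 lower in WT31_P5IV, and Mlana and Mitf were not called. Leukocytes could bring interferons and stimulated transcripts into a culture. Of their 10 markers, Cd14 was at 0 in every library, Ptprc and Adgre1 were at or below 0.0247 CPM on average, and the list summed to 4.96 to 6.76 CPM in WT31 and to 4.46 to 6.32 CPM in WT31_P5IV. Cd68 and Lyz2 were the 2 markers of this list that passed the filter, and Cd68 was higher and Lyz2 lower in WT31_P5IV. In these bulk libraries, fewer cells with a transcript and less of it per cell cannot be told apart.

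Across all genes, edgeR's quasi-likelihood test with Benjamini-Hochberg adjustment over 13620 tested genes called 9327 at an adjusted p below 0.05, which is 68.5%, and 34.6% were higher and 33.9% lower in WT31_P5IV. Of the 24 tested interferon genes, 17 were called (70.8%), 11 higher and 6 lower in WT31_P5IV, and 7 were not called. On both TPM scales, where more of all genes were called lower than higher, 7 members were called higher and 10 lower. The share of members called was thus near that of all genes. Their median log2 fold change was 0.16 against 0.01 over all tested genes, with a range of -0.04 to 0.19 over the alternative fits in which the negative values came from the TPM scales, and their median absolute log2 fold change was 0.29 against 0.30. For 16 of the 24 members, 10 higher and 6 lower, no library of WT31 lay within the range of WT31_P5IV, which held for 54.1% of all tested genes. A log2 fold change of at least 1 in size beside the adjusted p was reached by Nod1 and Trim25, and by 9.10% of all tested genes (5.42% higher and 3.69% lower).

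**Figure D1:**
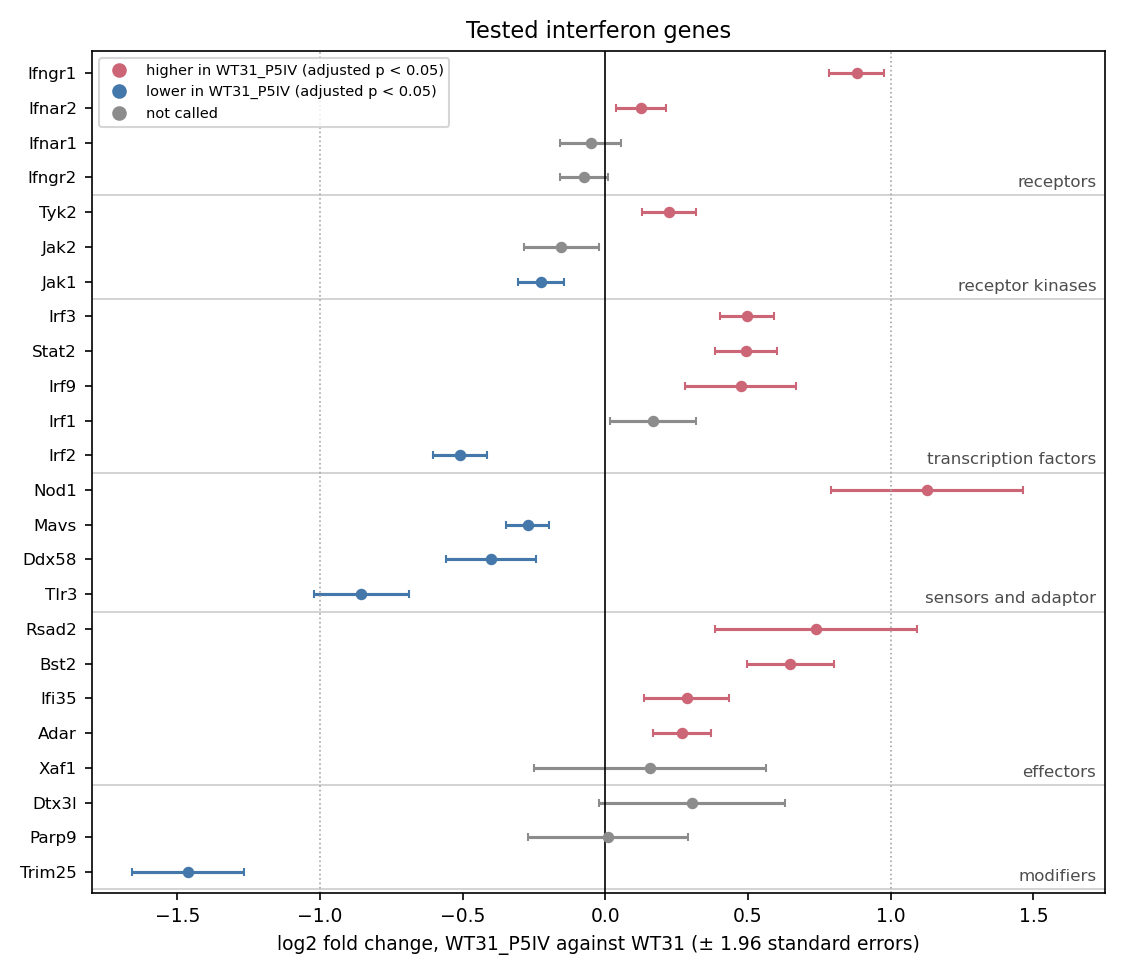
Log2 fold change of WT31_P5IV against WT31 for the 24 tested interferon genes, grouped by role, with bars of 1.96 standard errors, n = 5 libraries per group, and dotted lines at a log2 fold change of 1 in size. Ifngr1, Nod1 and the factors Irf3, Stat2 and Irf9 lie to the right, Tlr3, Irf2 and Trim25 to the left, and 17 of the 24 values lie within 0.50 of 0.

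Among the receptors, the transcript of 1 chain of the interferon gamma receptor was about 1.84 times as high by counts in the passaged subline. The chains of the type I receptor and the second gamma chain differed little on this scale. Ifngr1 (ENSMUSG00000020009.13, chr10:19591949-19610229, GRCm38) encodes the chain that binds interferon gamma. It measured 27.5, 25.0, 26.7, 28.5 and 26.5 CPM in the WT31 libraries 1 to 5 and 50.4, 52.6, 49.6, 44.9 and 49.4 CPM in those of WT31_P5IV. Every library of the subline lay above every parental library. The means were 26.8 ± 1.27 and 49.4 ± 2.81 CPM (SD, n = 5), and the log2 fold change was 0.88 ± 0.05 (standard error) with an adjusted p of 9.33e-10 by edgeR. Over the 19 alternative fits, the log2 fold change of Ifngr1 ranged from 0.68 to 0.91, and the gene stayed called in all of them. Its partner Ifngr2 (ENSMUSG00000022965.8, chr16:91547072-91565623), which brings JAK2 to the receptor, measured 46.5, 42.7, 47.1, 47.8 and 49.1 CPM in WT31 and 41.6, 45.5, 44.7, 45.6 and 44.0 CPM in WT31_P5IV. These values overlapped and the difference did not pass the test (log2 fold change -0.08, 95% interval -0.16 to 0.01, adjusted p = 0.137 by edgeR), although Ifngr2 passed as lower in 5 of 19 alternative fits, among them the one without WT31 library 2 (-0.12). Over all 19 fits the log2 fold change of Ifngr2 ranged from -0.24 to -0.05, and over those that left out 1 library from -0.12 to -0.06. In TPM, explained below, Ifngr2 averaged 21.3 in WT31 and 18.2 in WT31_P5IV.

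Ifnar1 (ENSMUSG00000022967.13, chr16:91485238-91507441), the chain of the type I receptor that binds TYK2, measured 83.3, 96.6, 91.8, 85.3 and 81.5 CPM in WT31 and 81.3, 88.7, 91.6, 79.8 and 81.9 CPM in WT31_P5IV. The groups overlapped almost completely, and the log2 fold change of -0.05 (95% interval -0.16 to 0.05) did not pass the test (adjusted p = 0.413 by edgeR), while it passed as lower on both TPM scales (-0.23 and -0.22). Ifnar2 (ENSMUSG00000022971.18, chr16:91372783-91405589), the chain with the higher affinity for the ligand, measured 43.4, 41.7, 46.6, 45.9 and 45.5 CPM in WT31 and 47.3, 49.2, 52.3, 45.8 and 48.9 CPM in WT31_P5IV. Library 4 of the subline fell within the parental range and the other 4 lay above it. Ifnar2 was called higher by 0.13 ± 0.04 on the log2 scale (adjusted p = 0.0209 by edgeR), yet it was lower by the test on log2(TPM + 0.1) and log2(TPM + 1), with a log2 fold change of -0.16 on either, scales on which the median of all tested genes moved by -0.17 and -0.16. The call was lost in 5 more of the 19 alternative fits, namely without WT31 library 1 (0.10), WT31 library 2 (0.09) or WT31_P5IV library 3 (0.09), without a filter (0.07) and with voom without scaling or filter (0.06). The gene shares 315 exonic bases with the predicted gene Gm21970 on the same strand, so that its counts are uncertain in that part.

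Per transcript length, in TPM (transcript abundances scaled to the same total in every library), the order of the receptor chains in WT31 was Ifnar2 at 57.7 ± 2.54, Ifnar1 at 36.3 ± 3.51, Ifngr1 at 21.5 ± 0.976 and Ifngr2 at 21.3 ± 0.960 TPM. The gamma chains did not differ beyond their spread in the parental line. In WT31_P5IV the order was Ifnar2 at 51.6 ± 3.21, Ifngr1 at 34.97 ± 1.69, Ifnar1 at 30.9 ± 1.96 and Ifngr2 at 18.2 ± 1.98 TPM. Ifngr1 thus stood beside Ifngr2 in the parental cells and near Ifnar1 in the passaged cells.

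**Figure D2:**
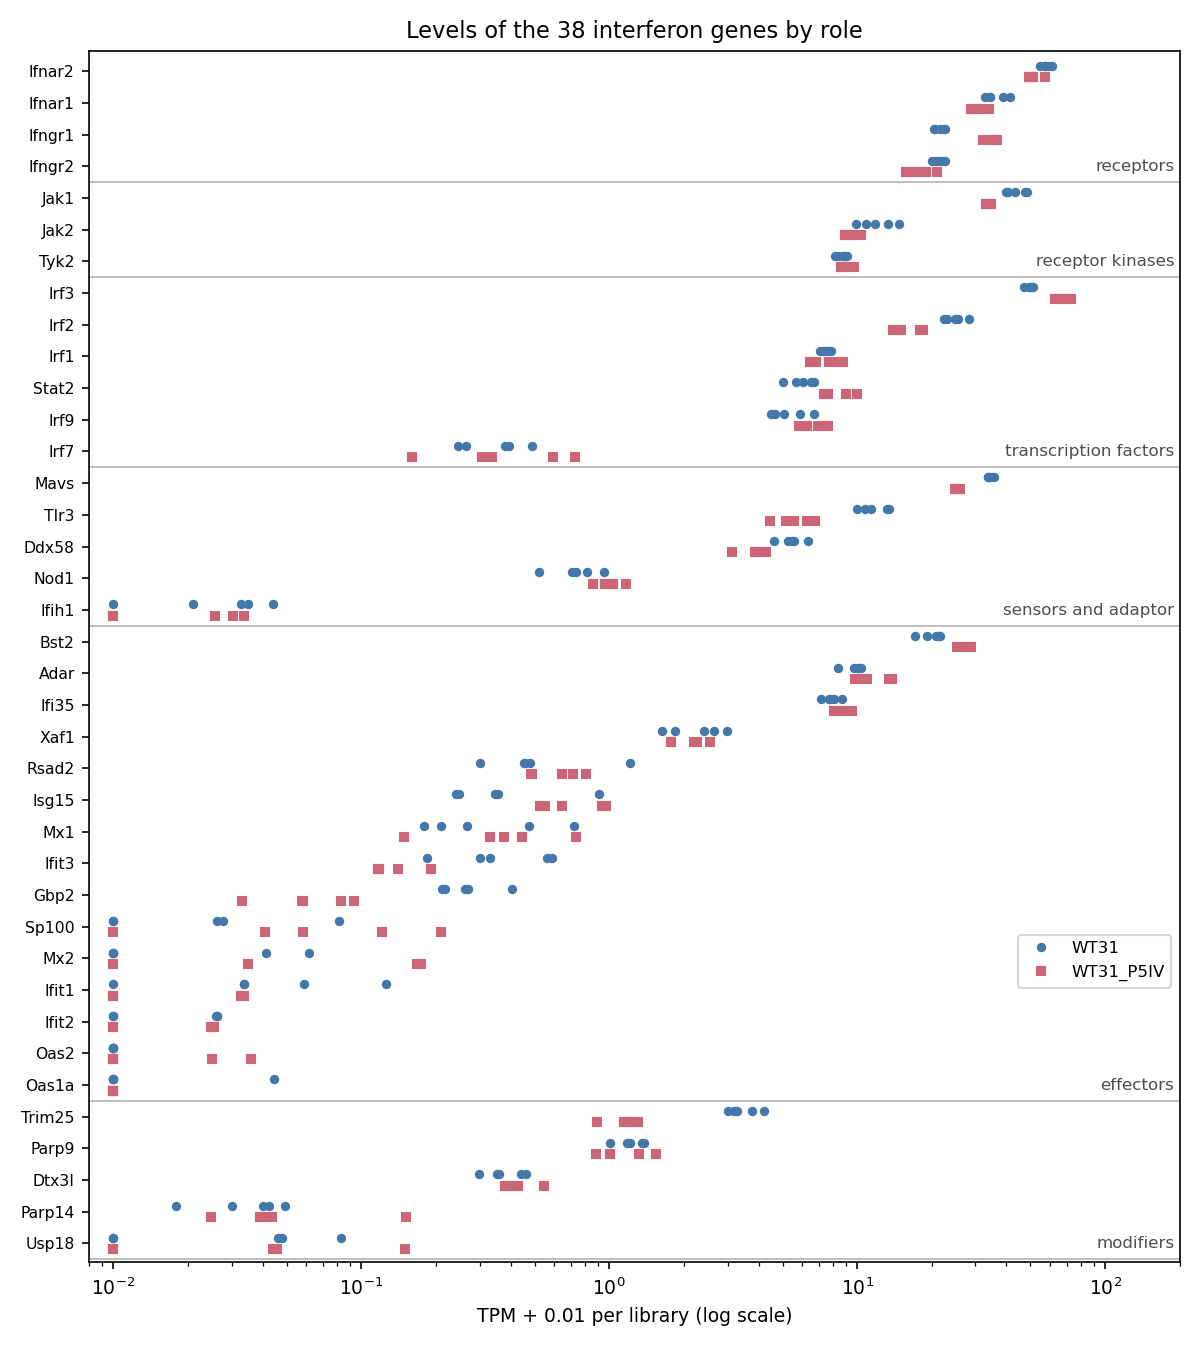
TPM + 0.01 per library on a log axis for the 38 interferon genes, grouped by role and ordered by mean level, with circles for WT31 and squares for WT31_P5IV, n = 5 each. Receptors, kinases and most factors lie between 5 and 100 TPM, while most of the classical stimulated effectors such as Isg15, Ifit1, Mx1 and Oas2 lie below 1 TPM in both lines.

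The kinases at the receptors differed by small amounts in both directions. Jak1, which serves both receptors, fell from 136 ± 7.82 to 116 ± 2.89 CPM (log2 fold change -0.23 ± 0.04, adjusted p = 2.25e-04 by edgeR). Its parental libraries held 128 to 145 CPM and those of the subline 113 to 119 CPM, without overlap. Tyk2, the partner of Jak1 at the type I receptor, rose from 25.4 ± 1.29 to 29.6 ± 1.38 CPM (0.22 ± 0.05, adjusted p = 8.91e-04 by edgeR), also without overlap (23.8 to 26.9 and 28.2 to 31.8 CPM), but did not pass in 3 of 19 alternative fits, namely voom without scaling or filter (0.15), log2(TPM + 0.1) (0.06) and log2(TPM + 1) (0.05). Tyk2 shares 8.07% of its exonic bases with 1700084C06Rik on the opposite strand, a gene that was not tested. Jak2, the partner of Jak1 at the interferon gamma receptor, measured 38.4 ± 4.30 CPM in WT31 and 34.5 ± 1.66 CPM in WT31_P5IV and did not pass (-0.15 ± 0.07, adjusted p = 0.0549 by edgeR). Jak2 passed as lower in 9 of 19 alternative fits, DESeq2 and the fits without WT31 library 4, WT31 library 5 or WT31_P5IV library 3 among them.

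Of the 5 tested transcription factors, Stat2, Irf3 and Irf9 rose, Irf2 fell and Irf1 did not pass. Stat2 measured 12.9, 13.7, 12.3, 12.5 and 12.4 CPM in WT31 and 18.3, 18.6, 18.3, 16.05 and 18.3 CPM in WT31_P5IV. Irf9, which gives ISGF3 its contact to DNA, measured 7.09, 8.02, 7.22, 7.03 and 7.33 CPM in WT31 and 10.2, 11.4, 8.69, 8.42 and 12.3 CPM in WT31_P5IV. Neither gene had a subline library within the parental range. The log2 fold changes were 0.49 ± 0.06 for Stat2 (adjusted p = 1.80e-06) and 0.47 ± 0.10 for Irf9 (adjusted p = 6.75e-04, both by edgeR). Irf9 shares 123 exonic bases with Rnf31 on the same strand, which is 2.28% of its exonic length.

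Irf3, the factor that the sensors activate to induce interferon beta, rose from 37.3 ± 2.34 to 52.6 ± 2.46 CPM (0.50 ± 0.05, adjusted p = 4.05e-07 by edgeR), with 34.9 to 40.3 CPM in the parental libraries and 49.9 to 56.2 CPM in those of the subline. Irf2, which is known to compete with IRF1 for its sites, held 33.2 to 34.5 CPM in the parental libraries and 22.3 to 26.5 CPM in those of the subline. Irf2 fell by 0.51 ± 0.05 on the log2 scale (adjusted p = 3.06e-07 by edgeR). Irf1, an early target of interferon gamma, measured 8.61 ± 0.493 and 9.67 ± 1.02 CPM and did not pass (0.17 ± 0.08, adjusted p = 0.0662 by edgeR), although it passed with upper-quartile scaling (0.20) and without WT31_P5IV library 3 (0.21) or library 4 (0.19). Irf7, a factor that is itself induced by interferon, held 5 to 8 counts in the parental libraries and 6 to 12 in those of the subline and was not tested.

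**Figure D3:**
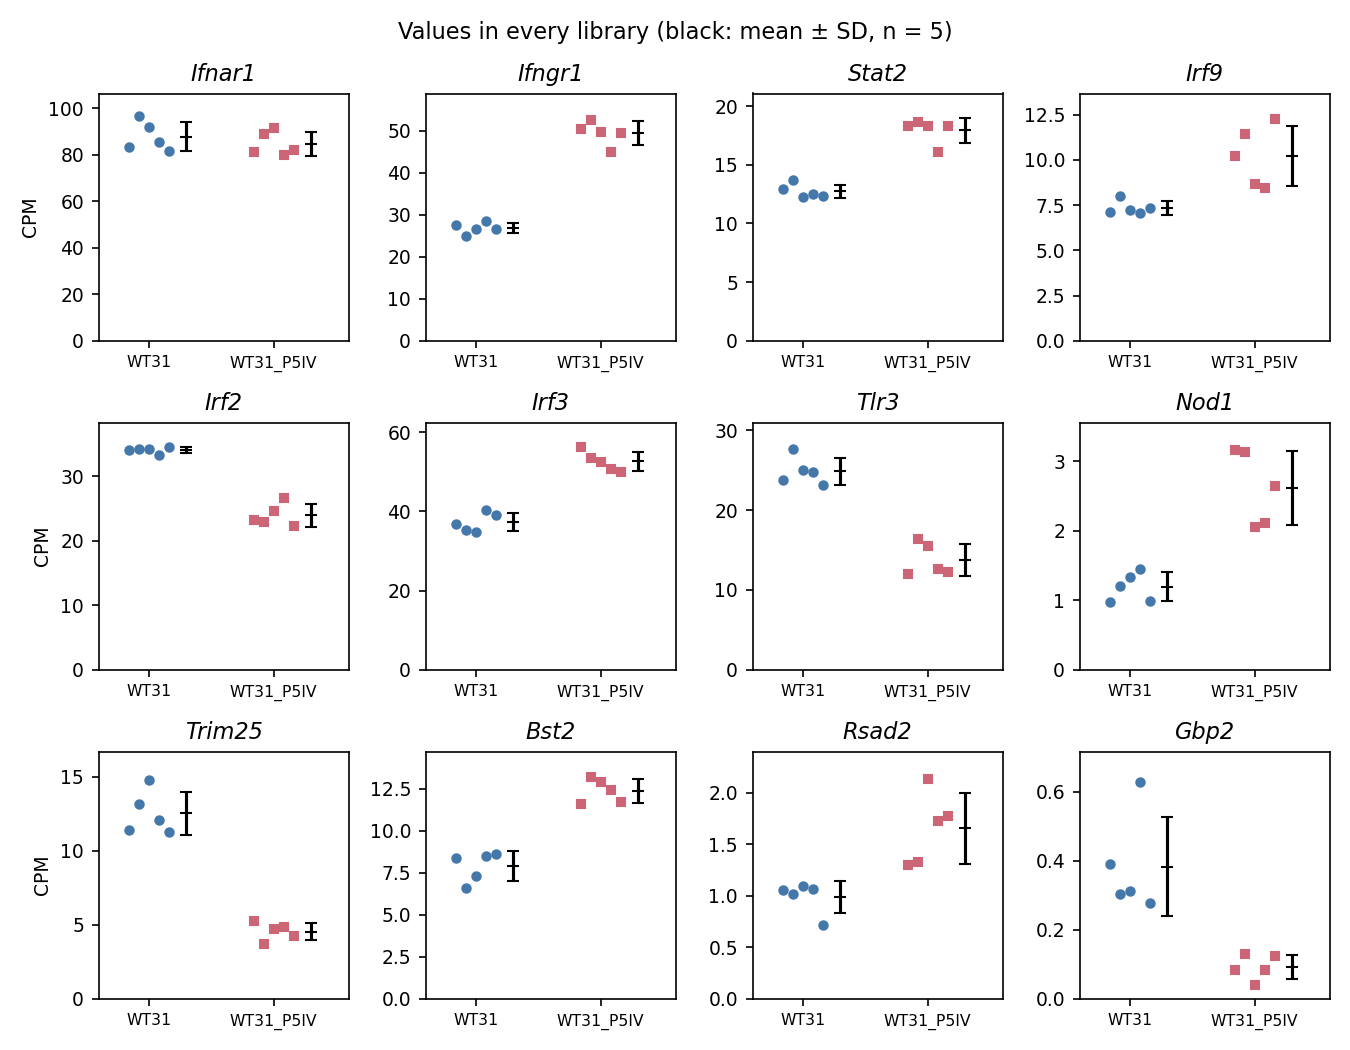
CPM in every library for 12 interferon genes, with circles for WT31 and squares for WT31_P5IV, and the mean with SD in black, n = 5 each, all axes from 0. Apart from Ifnar1, whose groups overlap, all panels show groups that do not share a value, with Ifngr1, Stat2, Irf9, Irf3, Nod1, Bst2 and Rsad2 higher and Irf2, Tlr3, Trim25 and Gbp2 lower in WT31_P5IV.

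Of the 5 genes for sensors and their adaptor, Tlr3, Ddx58 and Mavs were lower in the passaged subline, Nod1 was higher and Ifih1 was not tested. Tlr3, the endosomal receptor for double-stranded RNA, measured 23.8, 27.6, 25.0, 24.7 and 23.2 CPM in WT31 and 12.0, 16.3, 15.5, 12.7 and 12.3 CPM in WT31_P5IV. It fell by 0.85 ± 0.08 on the log2 scale (adjusted p = 4.44e-07 by edgeR), and no library of the subline reached the parental range. Tlr3 shares 7.32% of its exonic bases with Gm45542 on the opposite strand, a gene that was not tested, and the strand setting of the counting is not given. Ddx58, which encodes the cytosolic RNA sensor RIG-I, fell from 11.2 ± 1.14 to 8.46 ± 0.663 CPM (-0.40 ± 0.08, adjusted p = 4.38e-04 by edgeR). The lowest parental library held 9.43 CPM and the highest library of the subline 9.42 CPM, so that its groups were separated by a narrow margin. Mavs, the mitochondrial adaptor of RIG-I, fell from 62.5 ± 2.11 to 51.8 ± 1.96 CPM (-0.27 ± 0.04, adjusted p = 1.73e-05 by edgeR). Ifih1, the related RNA sensor MDA5, held at most 2 counts in any library. These 3 decreases kept their call in all 19 alternative fits.

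Nod1 (ENSMUSG00000038058.14, chr6:54923949-54972612), a cytosolic sensor of bacterial peptidoglycan and not of RNA, went the other way. It measured 0.980, 1.21, 1.33, 1.45 and 0.990 CPM in WT31 and 3.15, 3.13, 2.05, 2.11 and 2.64 CPM in WT31_P5IV. All libraries of the subline lay above the parental ones, with means of 1.19 ± 0.209 and 2.62 ± 0.533 CPM, and the log2 fold change was 1.13 ± 0.17 (adjusted p = 3.54e-05 by edgeR). Its level was low, at 0.735 ± 0.156 and 0.989 ± 0.113 TPM, and the log2 fold change was 0.40 on log2(TPM + 0.1) and 0.20 on log2(TPM + 1), so that on TPM Nod1 stayed called but did not reach a log2 fold change of 1. Nod1 lies on chromosome 6, where the median log2 fold change of 677 tested genes was 0.28 and 59.2% were higher. The part of the chromosome in this value was not tested.

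Of the 15 effectors, 5 were abundant enough to be tested, and Bst2, Rsad2, Ifi35 and Adar rose while Xaf1 did not pass. Bst2 (tetherin), which holds budding virus at the cell surface, measured 8.39, 6.59, 7.29, 8.49 and 8.63 CPM in WT31 and 11.6, 13.2, 12.9, 12.4 and 11.7 CPM in WT31_P5IV. The groups were well apart, and the log2 fold change was 0.65 ± 0.08 (adjusted p = 3.58e-06 by edgeR). Bst2 is also a marker of plasmacytoid dendritic cells, whose other listed markers Siglech and Ly6d were at 0.0233 and 0 CPM in WT31 and at 0.0494 and 0 CPM in WT31_P5IV. Rsad2 (viperin), an enzyme that makes a chain-terminating nucleotide, measured 1.06, 1.02, 1.10, 1.06 and 0.713 CPM in WT31 and 1.30, 1.33, 2.13, 1.73 and 1.78 CPM in WT31_P5IV. It rose by 0.74 ± 0.18 on the log2 scale (adjusted p = 0.00214 by edgeR) at low counts, but its TPM were 0.570 ± 0.361 and 0.617 ± 0.141 and the difference did not pass on either TPM scale (0.21 and 0.06).

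Ifi35, a regulator of innate signaling, rose from 6.01 ± 0.503 to 7.32 ± 0.429 CPM (0.29 ± 0.08, adjusted p = 0.00384 by edgeR) and did not pass in the same 3 of 19 alternative fits (0.22, 0.15 and 0.14). Adar, which edits adenosine to inosine in double-stranded RNA, rose from 30.9 ± 0.809 to 37.3 ± 2.83 CPM (0.27 ± 0.05, adjusted p = 2.82e-04 by edgeR). Both share 16.8% of their exonic bases with a gene on the opposite strand, Ifi35 with Gm11626 and Adar with Chrnb2, and since the strand setting of the counting is not given in the sources used here, reads of these partners cannot be told apart from theirs. Xaf1, an interferon-induced factor that promotes apoptosis, measured 1.26 ± 0.345 and 1.40 ± 0.310 CPM (0.16 ± 0.21, adjusted p = 0.517 by edgeR).

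The other 10 effectors, together with Irf7, Ifih1, Usp18 and Parp14, did not pass the filter and held at most 16 counts in any library. Ifih1, Ifit2, Mx2, Oas1a, Oas2 and Sp100 held no more than 3 counts in every library of both lines, so that a difference was not detectable at this depth. These genes encode an RNA sensor, an RNA-binding inhibitor of translation, a dynamin-like GTPase, synthases that activate RNase L, and a nuclear body protein. For the low genes, the CPM of the groups were compared in 14 exact permutation tests, each two-sided, whose smallest possible p is 0.00794 with 5 against 5 libraries, and p-values are given unadjusted.

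Gbp2 (chr3:142620602-142638008), a guanylate-binding GTPase induced by interferon gamma, held 10, 8, 8, 16 and 7 counts in WT31 and 2, 3, 1, 2 and 3 counts in WT31_P5IV. The groups did not overlap (p = 0.00794, exact permutation test, n = 5 per group, the smallest it can give), and the ratio of WT31_P5IV to WT31 was 0.240 with a 95% counting interval of 0.112 to 0.468. Ifit3, of the IFIT family that binds viral RNA, held 15, 8, 4, 9 and 15 counts in WT31 and 3, 3, 4, 3 and 5 counts in WT31_P5IV, with 1 parental library at the level of the subline. Its ratio was 0.377 (0.207 to 0.657, p = 0.0238 by the exact permutation test), and 61.8% of its 31-base words also occur in its copy Ifit3b, between which reads can be split. Isg15, the ubiquitin-like modifier, held 3, 2, 2, 8 and 3 counts in WT31 and 5, 5, 9, 9 and 6 counts in WT31_P5IV. Here the subline was higher, with a ratio of 2.02 (1.11 to 3.80, p = 0.0476 by the exact permutation test), and 13.1% of the 31-base words of Isg15 occur in transcripts of other genes. The intervals cover counting error only.

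When edgeR was fitted without the filter, Gbp2 (log2 fold change -2.05, adjusted p = 3.48e-04) and Ifit3 (-1.43, adjusted p = 0.00679) were called lower, and Isg15 was not called (0.93, adjusted p = 0.140). Of the rest, Irf7 had a ratio of 1.47 (0.911 to 2.39, p = 0.0556 by the exact permutation test) and Mx1, an antiviral GTPase, of 0.743 (0.458 to 1.19). Parp14, an ADP-ribosyltransferase, and Usp18, which removes ISG15 from proteins, had at most 4 counts in any library, and Ifit1 at most 5. The intervals of these 5 genes all included 1. Of the genes shown above with the ISRE core, Isg15, Ifit1, Ifit3 and Gbp2 thus held at most 16 counts in any library, while Bst2 and Rsad2 were called higher, Rsad2 on the counts only. Among the tested genes with the core that are not shown, Stat2 was called higher and Irf2 and Ddx58 lower.

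Among the modifiers, Trim25 showed the largest fold change of all tested members. Trim25 (ENSMUSG00000000275.16, chr11:88999376-89020293) encodes a ubiquitin ligase that acts on the RIG-I pathway. It measured 11.4, 13.2, 14.8, 12.1 and 11.3 CPM in WT31 and 5.26, 3.69, 4.71, 4.84 and 4.25 CPM in WT31_P5IV. The highest library of the subline held less than the lowest parental one, and the level fell from 12.6 ± 1.45 to 4.55 ± 0.5997 CPM, a log2 fold change of -1.46 ± 0.10 (adjusted p = 9.14e-09 by edgeR). Over all 19 alternative fits, the log2 fold change of Trim25 ranged from -1.54 to -1.07. Only 0.628% of its 31-base words occur in transcripts of other genes. Parp9, an ADP-ribosyltransferase, and Dtx3l, the ubiquitin ligase that pairs with it, lie head to head on chromosome 16 and share 458 exonic bases on opposite strands. Parp9 measured 2.16 ± 0.355 and 2.18 ± 0.321 CPM (0.01 ± 0.14, adjusted p = 0.958) and Dtx3l 1.19 ± 0.134 and 1.47 ± 0.303 CPM (0.30 ± 0.17, adjusted p = 0.118), and neither passed edgeR's test.

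8 members lie on chromosome 16, among them Ifnar2, Ifnar1 and Ifngr2 in 1 cluster, and of the chromosomes that hold members it had the largest share of lower genes. The median log2 fold change of its 415 tested genes was -0.42, with 68.2% lower and 10.1% higher, against 0.02 for the 13205 tested genes of all other chromosomes. The 5 tested members on it had a median of 0.01, with Ifnar2 called higher and the other 4 not called. Of the tested genes of chromosome 16, 75.2% had a lower log2 fold change than Ifngr2, 77.1% than Ifnar1, 79.5% than Parp9, 86.5% than Ifnar2 and 91.1% than Dtx3l. Within 500 kb of the starts of the 3 receptor genes, a window chosen after the values were seen, 9 of 14 other tested genes were lower, 1 higher and 4 not called, with a median of -0.23. Il10rb, the neighbour that encodes a receptor chain for interleukin 10 and interferon lambda, fell by 0.20 ± 0.04 on the log2 scale (adjusted p = 3.54e-04 by edgeR). Over all alternative fits the median of chromosome 16 ranged from -0.57 to -0.40 and that of its tested members from -0.16 to 0.10. The part of the chromosome in the values of the receptors was not tested.

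**Figure D4:**
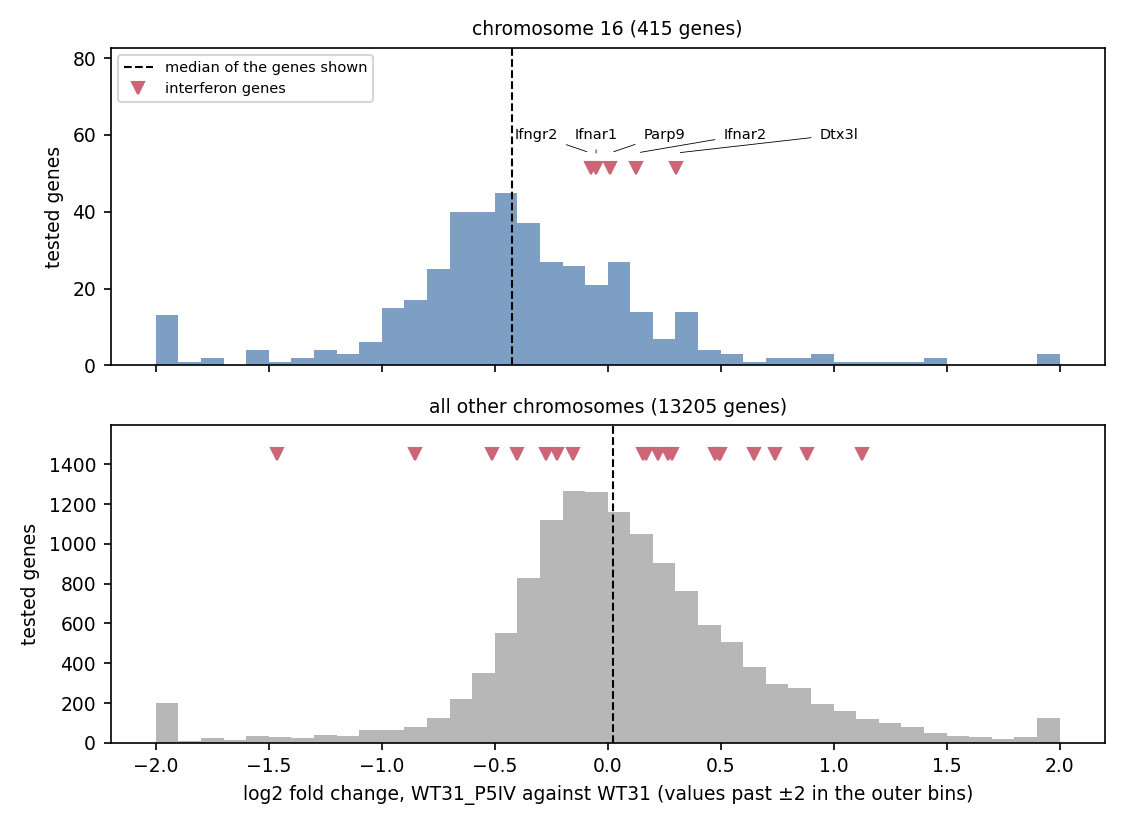
Number of tested genes by log2 fold change of WT31_P5IV against WT31 on chromosome 16 (upper panel, 415 genes) and on all other chromosomes (lower panel, 13205 genes), with triangles for tested interferon genes and a dashed line at the median of each panel. The 5 interferon genes of chromosome 16 lie to the right of its median of -0.42, and those of the other chromosomes lie on both sides of 0.02.

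Beside the members, 137 further genes of the interferon pathway were matched, and 65 of them were tested. 19 rose and 23 fell, which is 64.6% called as compared to 68.5% of all genes, with a median log2 fold change of 0.01. None of the 21 interferon genes themselves passed the filter on low counts. 17 of them were at 0 in all 10 libraries and the highest count was 5, for Ifnz, so that no ligand was detectable as differing at this depth. Of 15 tested sensors and signaling genes, 8 fell and 2 rose, with a median log2 fold change of -0.23. Of 14 tested genes of the lambda receptor, of inhibitors and of ISG15 conjugation (Uba7, Ube2l6 and Herc6), 4 rose, Herc6 among them, and 5 fell, of 27 tested stimulated genes 10 rose and 6 fell, and of 9 tested genes stimulated by interferon gamma 3 rose and 4 fell. In this order, 66.7%, 64.3%, 59.3% and 77.8% of the lists were called in either direction. Of all tested genes, 34.6% were called higher and 33.9% lower.

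By log2 fold change, the 5 largest increases among called genes of these lists whose groups did not overlap were Tap1, Apobec3, Ifi30, Dhx58 and Ptpn6. Tap1, a subunit of the peptide transporter for MHC class I, rose from 0.407 ± 0.118 to 6.24 ± 0.764 CPM (3.93 ± 0.17, adjusted p = 6.03e-11 by edgeR), with 6 to 14 counts in the parental libraries and 126 to 165 in those of the subline. It passed the filter on low counts only through the libraries of the subline, where it is high. Apobec3, a cytidine deaminase against retroviruses, rose from 5.01 ± 0.172 to 12.7 ± 2.31 CPM (1.34 ± 0.11, adjusted p = 8.68e-08 by edgeR). Ifi30, a thiol reductase of lysosomes, rose by 1.08 on the log2 scale to 114.8 ± 4.37 CPM. Dhx58, the third helicase of the RIG-I family, rose by 1.00 to 1.71 ± 0.318 CPM, in contrast to Ddx58. Ptpn6, a phosphatase that dampens JAK signaling, rose by 0.89 to 31.6 ± 1.55 CPM. Like Nod1, Ptpn6 and Herc6 lie on chromosome 6, where the median log2 fold change was 0.28 and 59.2% of tested genes were higher. Samd9l, given below, lies there too and fell. The part of the chromosome in these values was not tested.

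The 5 largest decreases were those of Gbp7, Lgals9, Samd9l, Cxcl10 and Eif2ak2. Gbp7, of the same family as Gbp2, fell from 1.84 ± 0.242 to 0.308 ± 0.124 CPM (-2.56 ± 0.23, adjusted p = 1.82e-07 by edgeR), with 36 to 52 counts in the parental libraries and 3 to 11 in those of the subline. Gbp7 passed the filter on low counts only through the parental libraries, where it is high. 14.7% of its 31-base words occur in other transcripts, Gbp3 and Gbp11 among them. Lgals9, which encodes the lectin galectin-9, fell from 50.04 ± 6.36 to 18.7 ± 1.32 CPM (-1.42 ± 0.08, adjusted p = 1.50e-09 by edgeR). Samd9l, an antiviral restriction factor, fell by 0.93 and Cxcl10, the chemokine that attracts T cells, by 0.77 on the log2 scale. Eif2ak2, the kinase PKR that stops translation on double-stranded RNA, fell by 0.58 on the log2 scale, from 26.7 ± 3.25 to 17.8 ± 1.71 CPM.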

How the data were processed

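RNA-seq of cultured WT31 (5 libraries) and WT31_P5IV cells (5 libraries) was used. According to the submitters' processing notes, reads were trimmed with Trim Galore 0.6.4 and matched with kallisto to transcripts of GRCm38. The authors deposited kallisto's estimated counts and TPM, both summed per gene. The authors' own comparison used limma voom. Symbols and positions are those of GENCODE M21, in which 55144 of the 55385 identifiers were found.

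The deposited estimated counts were rounded to whole numbers, filtered with filterByExpr, scaled by TMM and tested with glmQLFit and glmQLFTest (edgeR 4.0.16, R 4.3.3), and p-values were adjusted over all 13620 genes by the method of Benjamini and Hochberg. The test was first run on simulated data. Standard errors and the intervals of 1.96 standard errors are those of this fit. Members left out by the filter were compared by an exact permutation test. Alternatives were DESeq2 1.42.0, limma 3.58.1 (voom with TMM, voom without scaling or filter, log2(TPM + 0.1) and log2(TPM + 1)), upper-quartile scaling, no filter, at least 10 counts in every library, a replicate block, and each library left out in turn. Words of 31 bases, which kallisto matches by default, and overlapping exons mark genes whose reads can be shared. Scripts ran under Python 3.11.15.

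The members, the pathway and marker lists and the tests were chosen with earlier results of these data known. Per-library values were to be given for the receptors and for members called with a log2 fold change of at least 1 in size, and were added for further members after their values were seen. Of the other pathway lists, the 5 largest increases and decreases among called genes without overlap were named. Mb21d1, Sting1 and Parp13 of these lists are other symbols of Cgas, Tmem173 and Zc3hav1, under which these genes were matched. Each library counted as 1 sample. Replicates of a group differed by more than sampling noise (chi-square per degree of freedom 2.35 to 22.3), which does not show that they were separate cultures. Per list, hepatocyte markers summed to at most 1.30, endothelial markers to at most 0.416 and stellate cell and fibroblast markers to at most 1.43 CPM in any library. Of the latter, Acta2 was called higher (0.275 and 0.758 CPM, log2 fold change 1.46), and it passed the filter on low counts only through the libraries of the subline.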

Additional observations from a re-analysis of the deposited data

Results flagged for a closer look

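48 sets of 5 libraries, 1 for each tested member and line, were searched for a library far from the others by Dixon's test at 95%, and 3 stood out, where chance gives about 5% of such sets. Stat2 held 16.05 CPM in WT31_P5IV library 4, while the other 4 libraries of the subline held 18.3 to 18.6 CPM. Rsad2 held 0.713 CPM in WT31 library 5, below the other parental libraries at 1.02 to 1.10 CPM. Parp9 held 2.78 CPM in WT31 library 1, above the others at 1.90 to 2.08 CPM. Without each library in turn, the log2 fold change of Stat2 ranged from 0.47 to 0.53 and that of Rsad2 from 0.62 to 0.81, and both stayed called.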

How the results depend on the processing

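Of 456 fits of a single tested member under an alternative, 409 kept direction and call, 13 lost a call (Ifnar2, Tyk2, Ifi35 and Rsad2), 19 gained one (Ifnar1, Ifngr2, Jak2 and Irf1) and 15 changed sign (Ifnar2, Xaf1 and Parp9). On log2(TPM + 0.1) and log2(TPM + 1), 2915 and 2910 of all genes were called higher and 5946 and 5957 lower, and 7 members were called higher and 10 lower on either scale, on which the median of all tested genes moved by -0.17 and -0.16. There Ifnar2 changed sign (-0.16 on either), as did Xaf1 (-0.10 and -0.075) and Parp9 (-0.10 and -0.056). Without a filter, and with voom without scaling or filter, 10 members were called lower and 4 passed a log2 fold change of 1 in size, Gbp2 and Ifit3 among the former, 10 and 8 members were called higher, 4718 and 4553 of 31234 genes were called higher and 5445 and 5455 lower, and Parp9 was at -0.046 and -0.057. On log2(TPM + 1), 1 member passed that fold change. Asking for it beside the adjusted p left 2 of the 17 members and 1240 of the 9327 genes. Leaving out 1 library gave 16 to 18 called members, and Parp9 ranged from -0.048 to 0.10.

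The replicate numbers are those of the sample titles, while the descriptions of the WT31 libraries also carry other numbers. The labels do not say whether libraries with the same number form a pair. The deviations of same-numbered libraries correlated at -0.01, 0.07, 0.18, 0.08 and -0.10, and those of differently numbered libraries at -0.19 to 0.19. These correlations cannot settle whether the cultures were paired. With the number as a replicate block, 18 members, 42 other pathway genes and 9380 genes were called, and Jak2 gained a call (-0.15, adjusted p = 0.0257 by edgeR). Genes with fewer than about 10 counts per library, among them the classical stimulated effectors, are limited by depth. The cause of the differences between scales was not tested.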
